A study of Mus musculus with 12 samples.

Results

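The cytosolic ribosome holds a small 40S subunit, which reads the mRNA, and a large 60S subunit, which joins amino acids, and each carries a fixed set of ribosomal proteins (RP). In mammals most of these proteins are encoded by 1 active gene each, scattered over the chromosomes. Their mRNAs are short and abundant, and many begin with a C followed by a run of pyrimidines, the 5′ terminal oligopyrimidine (TOP) sequence through which mTORC1 and the RNA-binding protein LARP1 control their translation. In the hippocampus RP mRNAs are present in cell bodies and also in neuronal processes.

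The genes were taken by name, as symbols made of Rpl or Rps and a number with at most 1 closing letter a, x or y, together with Rplp0, Rplp1, Rplp2 and Rpsa. The rule found 77 of the 23329 genes in the files, 31 of the 40S and 46 of the 60S subunit, and left out the Rps6k kinases and the RP-like genes. No measured value entered the rule. All 77 passed the filter on low counts, which left 14131 genes to test.

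Hippocampal mRNA was sequenced from adult C57BL/6 mice in 12 libraries of 3 per group. The groups were KO CT22, WT CT22, KO CT10 and WT CT10, where KO is the NONO knockout, WT is wild type and the meaning of the CT labels is not given. NONO is a nuclear protein that binds RNA and DNA. The labels do not describe the allele, and no source used here says that each library is a different animal. The p-values therefore describe the scatter among these libraries only, and that scatter may be technical.

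Estimated counts per library ran from 4435606 to 10911046, of which the 77 genes took 1.375% to 1.815%. Nono held 0 to 4 counts in KO libraries and 1147 to 1814 counts in WT libraries. All 13 markers of hippocampal neurons had counts in every library, with a summed level of 8251 to 12090 CPM (counts as a rate of the TMM-adjusted library size) in KO and 9103 to 11970 CPM in WT. By a score of clock genes, KO CT10 replicate 3 and KO CT22 replicate 1 lay nearer to the WT libraries of the other CT label, so comparisons are also given without these libraries. The reference was the mean of the WT libraries, and whether the knockout itself moves these clock genes was not tested. Choroid plexus markers, all 16 present in every library, summed to 235.3 to 5390 CPM in KO CT22, 404.7 to 2210 CPM in WT CT22, 377 to 4940 CPM in KO CT10 and 342.9 to 2115 CPM in WT CT10.

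The starts of the genes are shown first, because the TOP sequence is the feature that RP mRNAs are best known to share. Of the 77 genes 56 had a promoter entry in RefSeq (build GRCm38.p6), and 44 of these entries had the same start as the deposited gene model. A C at the annotated start that opened a run of at least 5 pyrimidines was found in 13 genes, or 23.2%, against 2.97% of 26969 other genes. The windows below hold 15 bases before the start and 15 from it, read 5′ to 3′ on the strand of the gene, and capitals mark the run. The first 6 genes have the run, and the last 2, which are among those with the largest differences at CT22, do not.
Rps6 (chr4:86857353-86857382, minus strand): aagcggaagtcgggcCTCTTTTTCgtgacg
Rpl35 (chr2:39005117-39005146, minus strand): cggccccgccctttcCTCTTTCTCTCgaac
Rpl15 (chr14:18270972-18271001, minus strand): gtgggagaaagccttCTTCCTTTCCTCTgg
Rpl28 (chr7:4792950-4792979, plus strand): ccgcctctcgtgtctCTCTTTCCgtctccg
Rps21 (chr2:180257364-180257393, plus strand): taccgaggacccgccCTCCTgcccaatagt
Rps27 (chr3:90213634-90213663, minus strand): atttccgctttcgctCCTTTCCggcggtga
Rpl26 (chr11:68901551-68901580, plus strand): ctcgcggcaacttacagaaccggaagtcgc
Rpl36a (chrX:134585639-134585668, plus strand): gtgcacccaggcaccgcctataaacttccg

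The search depends on the annotated start to the base, so a gene without a match may still start with such a run in the cell. Within the 300 bases around the start, the letters CCGGAAG, the core bound by ETS factors such as GABP, stood on either strand in 23 of the 56 genes (41.1%), against 9.86% of other genes. The letters AAGATGG, the core of the YY1 motif, stood on either strand in 9 genes (16.1%), against 7.26% of other genes. TATAAA, the TATA box core, was found on either strand in 6 genes (10.7%), against 15.7% of other genes. CCGGAAG can share its closing AAG with the start of AAGATGG, and a match is a description of the sequence only.

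The RP mRNAs differed widely in level per length, and they were not ranked against other genes. Their levels in TPM, the authors' measure per transcript length that sums to the same total in every library, summed to 50056 to 62445 per library, and the median gene stood at 687 TPM. The highest levels, as mean ± SD over 12 libraries, were Rpl41 at 1900 ± 229 TPM, Rplp1 at 1860 ± 194 TPM, Rps29 at 1810 ± 192 TPM, Rps15 at 1610 ± 169 TPM and Rps21 at 1260 ± 118 TPM. Rpl41, Rplp1 and Rps29 lay within each other's SD. Rpl41 encodes the shortest protein of the ribosome, a single helix at the contact between the subunits.

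**Figure D1:**
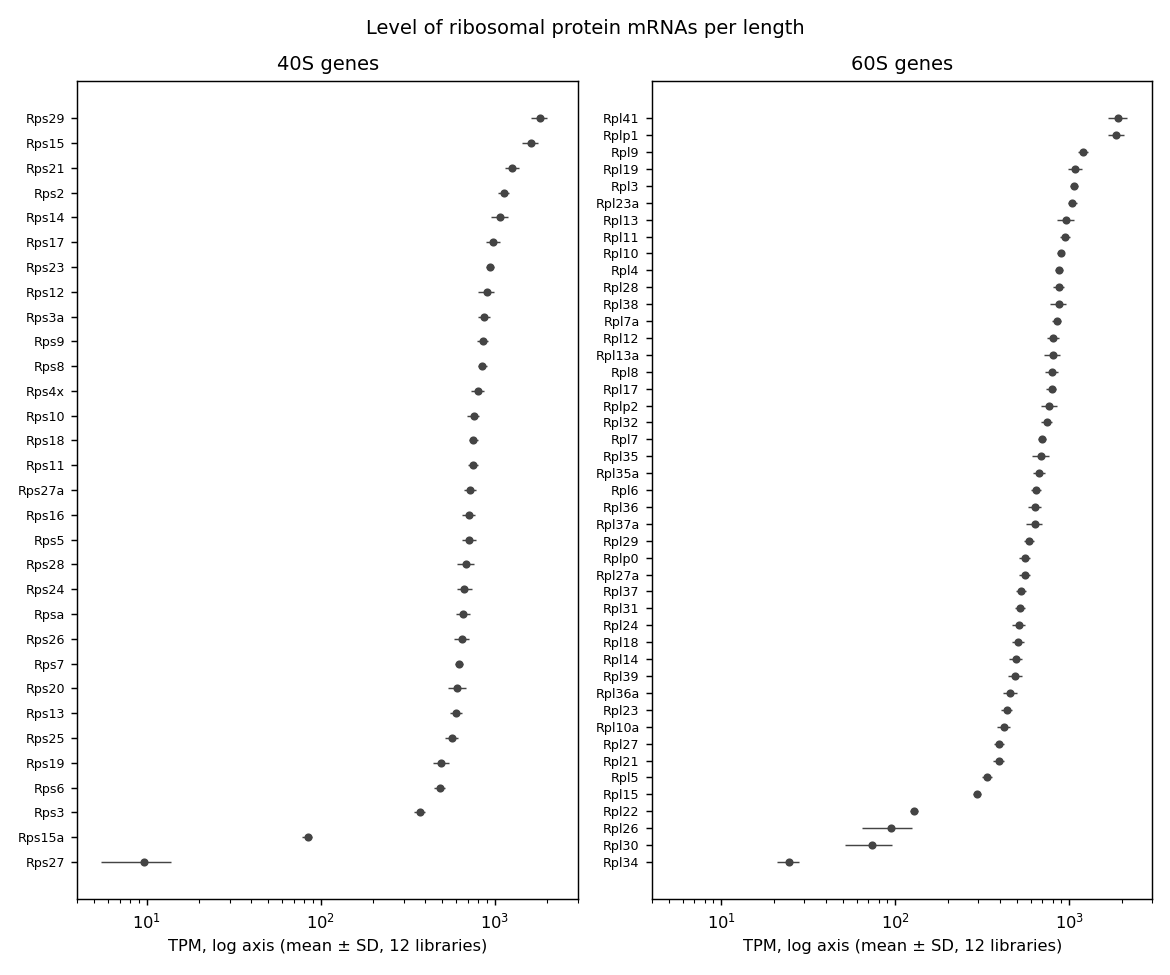
Levels of 76 RP mRNAs per length in TPM on a log axis, with 40S genes on the left and 60S genes on the right, as points for the mean and bars for the SD over 12 libraries. Rpl41 is highest at 1900 TPM, and Rps27, Rpl34, Rpl30, Rps15a, Rpl26 and Rpl22 lie below.

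At the low end stood Rps27 at 9.62 ± 4.13 TPM, Rpl34 at 24.3 ± 3.44 TPM, Rpl30 at 73.6 ± 22.4 TPM, Rps15a at 84 ± 5.48 TPM and Rpl26 at 94.7 ± 30.2 TPM (SD, n = 12). The authors also gave a second, posterior count estimate, which differed from the count used here for Rps27, Rpl34, Rpl30 and Rpl26. Whether copies of these genes elsewhere in the genome play a part was not tested. For the other 73 genes the posterior mean count was within 2% of the count used here. Rps27 averaged 17 counts by the first estimate and 407 by the posterior one, or 426 ± 113 TPM (SD, n = 12). The first estimate listed a 346-base transcript of Rps27 at 0 counts in every library. Rpl34 averaged 43 counts, while the neighbouring entry named as a pseudogene, Rpl34-ps1, held 741 counts. The model of Rps15a is 5134 bases long, against a median of 703 bases for the 77 genes, which lowers its value per length.

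Genes of known special role stood at many levels. The stalk proteins Rplp0, Rplp1 and Rplp2, which recruit the translation factors to the 60S subunit, had levels of 554, 1860 and 768 TPM. Rps6, the 40S protein phosphorylated by S6 kinases, stood at 485 TPM, and Rpsa, on the 40S surface near the mRNA exit, at 659 TPM. Rps27a, made as a fusion with ubiquitin, stood at 722 TPM, Rps4x at 799 TPM, and Rpl10, which joins the 60S subunit late in its assembly, at 893 TPM. Rpl22, an RNA-binding 60S protein, was lower at 128 ± 7.3 TPM.

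RP genes were high or low together in most libraries. The group means of the summed RP level ran from 14110 CPM in KO CT22 to 16350 CPM in WT CT22, and the SD within a group reached 2000 CPM in KO CT10 and 1980 CPM in WT CT22 (n = 3 each). By library it was 14018, 14796 and 13505 CPM in KO CT22 replicates 1, 2 and 3, against 14225, 16658 and 18155 CPM in WT CT22. It was 14525, 17601 and 13850 CPM in KO CT10, against 15271, 15256 and 15795 CPM in WT CT10. KO CT10 replicate 2 and WT CT22 replicates 2 and 3 were high, WT CT10 was tight, and KO and WT overlapped under both labels. In bulk tissue, fewer cells of a type and less RNA per cell cannot be told apart.

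**Figure D2:**
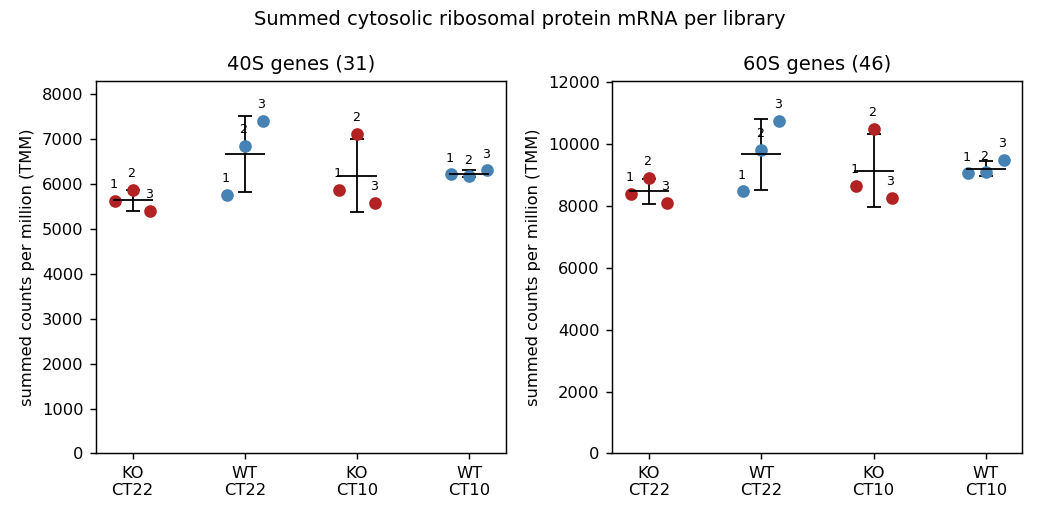
Summed level of 40S genes (left) and 60S genes (right) in CPM for each library, with KO in red, WT in blue, replicate numbers beside the points, and black bars for the group mean ± SD (n = 3). Both subunits show the same order of libraries at the top, with WT CT22 replicate 3 and KO CT10 replicate 2 highest.

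The share of the 40S genes within all RP counts stayed between 39.75% and 41.13% in the 12 libraries. The number of genes above their own 12-library mean was 5, 30 and 1 of 77 in KO CT22 replicates 1, 2 and 3, against 11, 75 and 76 in WT CT22. In KO CT10 it was 8, 75 and 0, against 44, 39 and 59 in WT CT10. The set was split in KO CT22 replicate 2 and in WT CT10, and in the other libraries most genes lay on 1 side. After removal of group means, the median correlation between 2 RP genes over the 12 libraries was 0.8, and 97.2% of the 2926 pairs were positive, a description of genes that share libraries and depth. The lowest median correlations with the other genes were those of Rps27 (-0.25), Rps15a (0.23), Rpl30 (0.39) and Rpl34 (0.39), and the highest was that of Rpl19 (0.89).

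**Figure D3:**
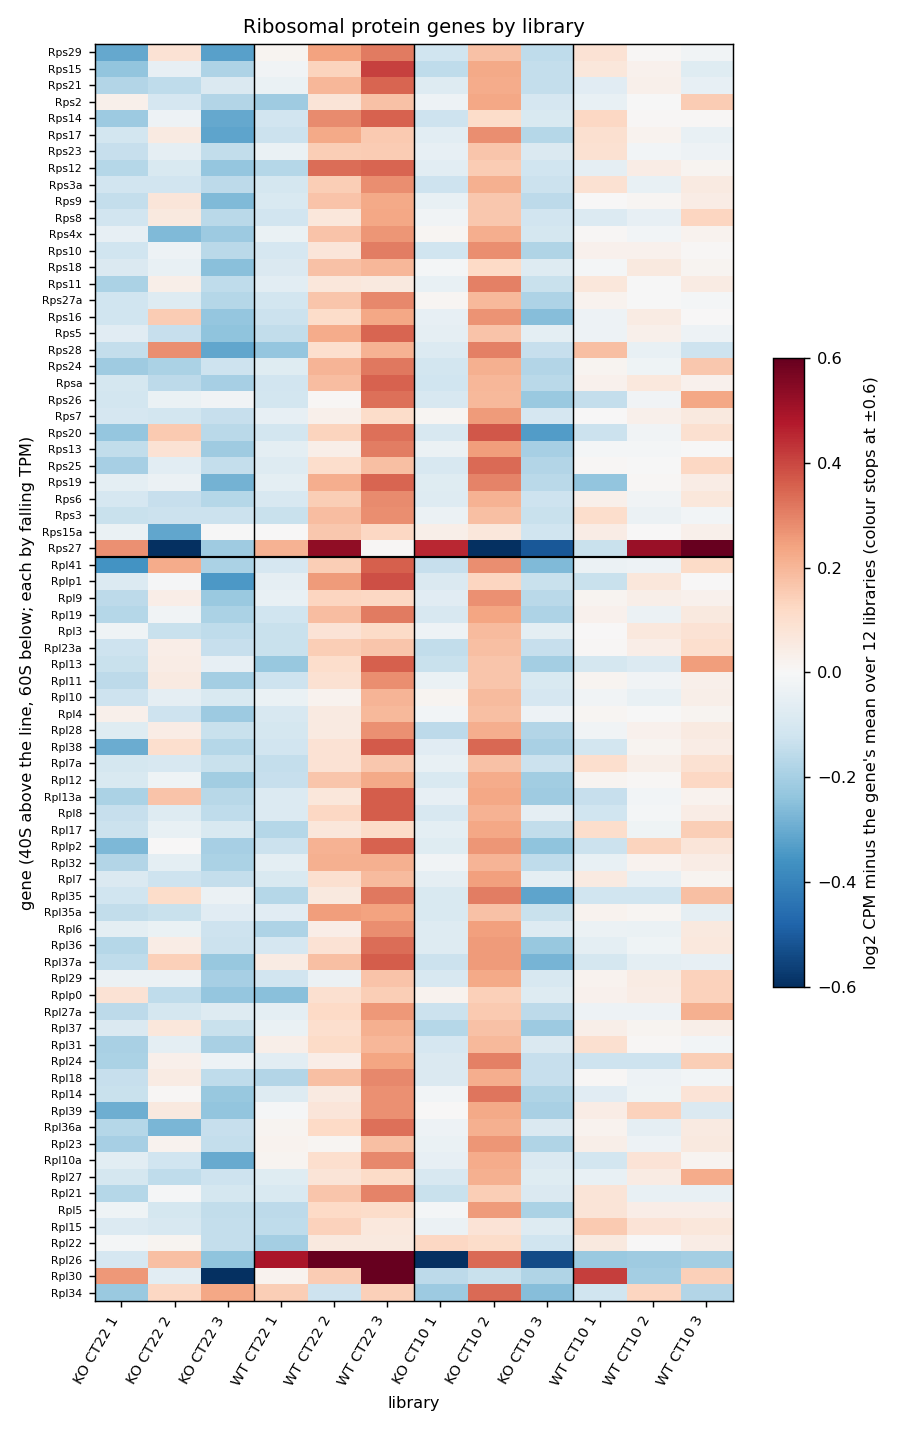
Log2 CPM of 76 RP genes, each minus its mean over 12 libraries, with libraries as columns and genes as rows, 40S above the line and 60S below, red for higher and blue for lower. The columns of KO CT10 replicate 2 and WT CT22 replicate 3 are red over nearly all rows, and the rows of Rps27, Rpl26 and Rpl30 break the pattern.

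The libraries also differed by transcript length in genes outside the RP set. In KO CT10 replicate 2 the 788 other genes with models of 500 to 1000 bases lay 0.18 above their mean (median log2), and the 2440 genes over 5000 bases lay 0.16 below it (-0.16). In WT CT22 replicate 3 the same medians were 0.18 and -0.21. In KO CT22 replicate 1 they were -0.15 and 0.13. The medians of the RP genes were 0.22, 0.27 and -0.13 in these 3 libraries, and 60 of the 77 genes have models under 1000 bases.

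**Figure D4:**
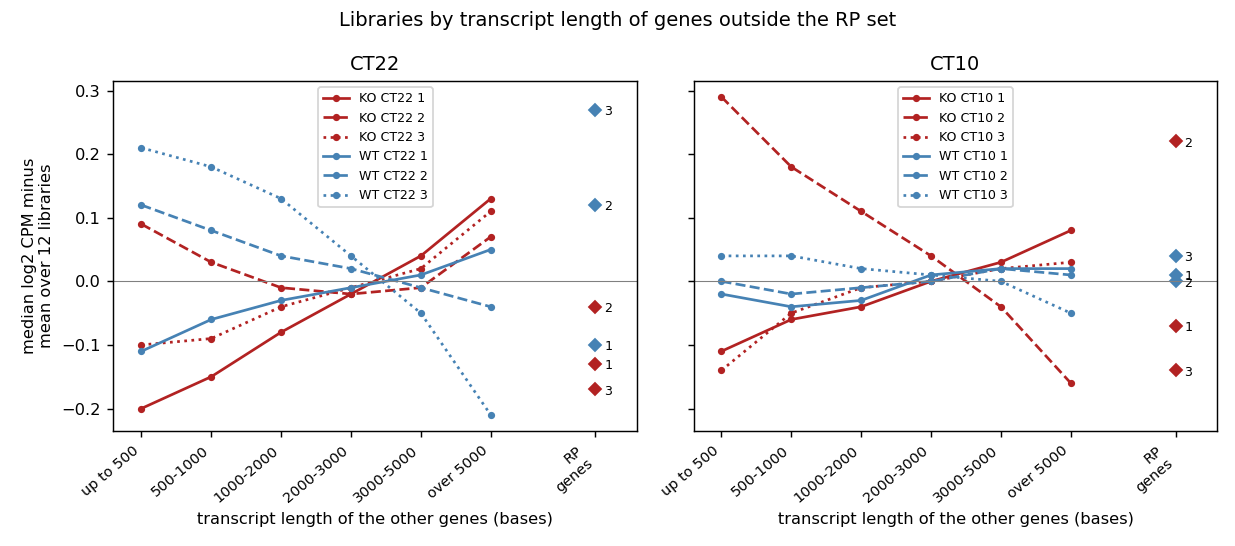
Median deviation in log2 CPM of genes outside the RP set, by transcript length in bases, 1 line per library (KO red, WT blue), with CT22 on the left and CT10 on the right, and diamonds for the median of the 77 RP genes. Lines that fall with length, as in WT CT22 replicate 3 and KO CT10 replicate 2, belong to libraries with high RP medians.

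At CT22 all 77 RP genes had a lower estimate in KO than in WT, but no single gene passed the test. The median log2 change was -0.21, with a range of -0.70 to -0.02, against a median of 0 over all genes tested. In edgeR's quasi-likelihood test with Benjamini-Hochberg adjustment over all genes, 0 RP genes had an adjusted p under 0.05, against 0.0142% of all genes, and the lowest adjusted p was 0.377. At an unadjusted p under 0.05, 30 RP genes were lower in KO and 0 higher, against 4.69% and 6.23% of all genes, and DESeq2 called 0 genes with 33 at an unadjusted p under 0.05 (9.65% of all genes). Estimates below 0 made up 49.4% of all genes. The RP genes varied together over the libraries (median correlation 0.8 after removal of group means), so these counts are not of independent genes. The median was -0.23 for 40S and -0.19 for 60S genes.

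The KO libraries all lay below the WT libraries at CT22 for 18 RP genes, 9 of each subunit, against 6.49% of all genes. Rpl26, a 60S protein near the peptide exit tunnel, had 16.2, 19.7 and 14.7 CPM in KO CT22, against 24.4, 27 and 30.1 CPM in WT CT22. All 3 KO libraries were below all 3 WT libraries, and the log2 change was -0.70 (SE 0.23, edgeR adjusted p = 0.397).

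Rpl36a, an X-linked 60S gene, had 68.8, 64.1 and 70.4 CPM in KO CT22, against 78.4, 84.2 and 97.4 CPM in WT CT22. The groups did not overlap, and this gene had the lowest adjusted p of the set (log2 change -0.35, SE 0.10, edgeR adjusted p = 0.377). Rps24, whose human gene is mutated in Diamond-Blackfan anaemia, had 184, 187 and 196 CPM in KO CT22, against 203, 246 and 266 CPM in WT CT22. Rps15, a 40S protein with a tail at the decoding site, had 250, 285 and 259 CPM in KO CT22, against 290, 323 and 392 CPM in WT CT22. The log2 changes of Rps24 and Rps15 were both -0.34, and for both the gap between the groups was small beside the spread within WT CT22.

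Rps6 had 242, 236 and 231 CPM in KO CT22, against 243, 288 and 316 CPM in WT CT22, so that WT replicate 1 lay just above the highest KO library. Rpsa, with 443, 427 and 414 CPM in KO CT22 against 440, 542 and 608 CPM in WT CT22, overlapped through the same WT library. In the stalk, Rplp1 had 284, 299 and 237 CPM in KO CT22, against 290, 359 and 393 CPM in WT CT22, with overlap and a log2 change of -0.35 (SE 0.12). Its partner Rplp2 had 96.2, 116 and 101 CPM in KO CT22, against 106, 134 and 148 CPM in WT CT22 (-0.31, SE 0.14). Rplp0, the base of the stalk, had 307, 260 and 246 CPM in KO CT22, against 243, 309 and 320 CPM in WT CT22, with KO replicate 1 among the high values and a log2 change of -0.10 (SE 0.11). Rpl30, which in yeast binds its own transcript, had 16.3, 13 and 6.28 CPM in KO CT22, against 13.8, 15.1 and 24.7 CPM in WT CT22, with overlap and a log2 change of -0.60 (SE 0.31). Rpl22 had 101, 103 and 92.1 CPM in KO CT22, against 88.4, 106 and 106 CPM in WT CT22, and its estimate and that of Rpl34, both -0.02, were the nearest to 0. Apart from Rpl26, Rpl30 and Rps27, the log2 changes of the set ran from -0.37 to -0.02.

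Several 40S genes had like values. Rps4x, an X-linked gene, had 252, 217 and 224 CPM in KO CT22, against 254, 294 and 313 CPM in WT CT22, without overlap (log2 change -0.31, SE 0.10). Rps21 had 146, 148 and 155 CPM in KO CT22, against 160, 189 and 210 CPM in WT CT22, also without overlap (-0.32, SE 0.11). Rps29, the zinc-binding protein among the highest genes per length, had 191, 251 and 189 CPM in KO CT22, against 239, 280 and 294 CPM in WT CT22. There KO replicate 2 lay above WT replicate 1, and the log2 change was -0.37 (SE 0.12). Rps14 had 196, 223 and 184 CPM in KO CT22, against 210, 277 and 291 CPM in WT CT22, with the same kind of overlap (-0.37, SE 0.12). Rps27a had 178, 183 and 172 CPM in KO CT22, against 179, 217 and 236 CPM in WT CT22 (-0.25, SE 0.11), with KO replicate 2 above WT replicate 1. Among 60S genes, Rpl41 had 228, 341 and 256 CPM in KO CT22, against 272, 324 and 374 CPM in WT CT22, a wide spread in both (-0.24, SE 0.17). Rpl10 had 241, 253 and 247 CPM in KO CT22, against 256, 267 and 303 CPM in WT CT22, close but without overlap (-0.16, SE 0.09).

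Rps27, a zinc-finger protein of the 40S subunit, had 2 directions by count estimate. The first estimate gave a log2 change of -0.44 (SE 0.42) at CT22 from 22, 3 and 13 counts in KO CT22, against 21, 24 and 20 counts in WT CT22. The posterior estimate held 529, 356 and 409 counts in KO CT22, against 514, 364 and 433 counts in WT CT22, and gave a log2 change of 0.46 (SE 0.29, edgeR adjusted p = 0.571). With that estimate 75 of 77 RP genes were lower in KO, the median stayed at -0.21 and 0 genes passed.

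The set's lower level at CT22 rested in part on single libraries. Without WT CT22 replicate 3 the median was -0.14 with 7 genes at an unadjusted p under 0.05, and without WT CT22 replicate 1 it was -0.31 with 53. For fits with libraries left out or a length trend removed, here and below, the same share of all genes was not computed. Such counts can therefore not be set against all genes. Leaving out KO CT22 replicate 3 left 15 such genes, and leaving out WT CT22 replicate 2 left 14. In other genes the KO to WT difference at CT22 ran with length, from a median log2 of -0.16 for models of 500 to 1000 bases, of which 78.3% were lower, to 0.17 over 5000 bases, of which 15.5% were lower. With a length trend removed from each library, the RP median was -0.06, 61 genes were lower and 9 had an unadjusted p under 0.05. With the library richest in choroid plexus markers left out of every group, the median was -0.10 with 65 genes lower and 2 at an unadjusted p under 0.05. That step removed WT CT22 replicate 3, with the highest summed RP level of WT CT22 (18155 CPM). It also removed KO CT22 replicate 3, with the lowest of KO CT22 (13505 CPM). With the 2 KO libraries that the clock genes put elsewhere left out, the median was -0.21 with 76 lower. Of 8 lists of cell type and tissue markers, 1 had summed levels that did not overlap at CT22. This was the list of 10 microglia markers, all with counts in every library, at 452.4 to 484.5 CPM in KO CT22 and 499.8 to 584.7 CPM in WT CT22. The part of length, choroid plexus tissue and microglia in the result was not tested beyond these values.

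At CT10 the RP genes showed no common direction. The median log2 change was -0.01, with 46 genes lower and 31 higher in KO, against a median of 0 over all genes and 48.5% of all genes below 0. In edgeR 0 RP genes passed, and 0.00708% of all genes did. At an unadjusted p under 0.05, 0 RP genes were lower or higher in KO, against 1.65% and 1.44% of all genes, and DESeq2 called 0 with 0 at an unadjusted p under 0.05 (2.23% of all genes). The groups overlapped for every RP gene, while 5.43% of all genes lay lower and 4.9% higher without overlap. Rps27 (-0.69, SE 0.41) and Rpl30 (-0.29, SE 0.31) had the largest log2 changes, from few counts, followed by Rpl15 (-0.11, SE 0.08).

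The CT10 median turned with single KO libraries. Without KO CT10 replicate 2 it was -0.13 and all 77 genes were lower, and without KO CT10 replicate 3, 1 of the KO libraries that the clock genes put elsewhere, it was 0.07 and 11 were lower. With both such KO libraries left out the median was also 0.07 with 11 lower. Rpl26 had 9.29, 22 and 12 CPM in KO CT10, against 14.9, 15 and 15.1 CPM in WT CT10, so that KO libraries lay on both sides of WT. Of the 8 lists of markers, 1 had summed levels that did not overlap at CT10. This was the list of neuron markers, at 10150 to 10380 CPM in KO CT10 and 10790 to 11970 CPM in WT CT10. The part of neurons in the RP values was not tested.

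**Figure D5:**
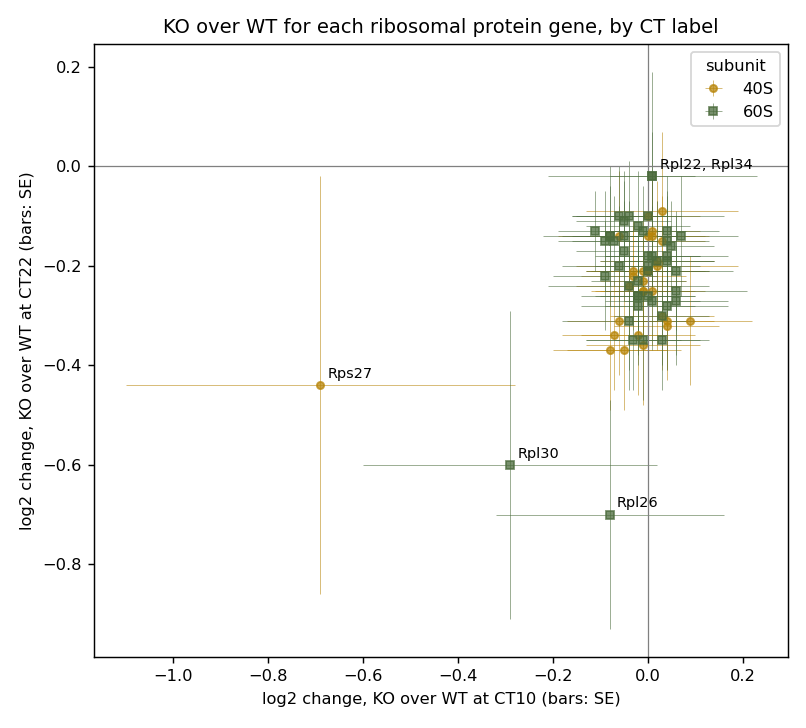
Log2 change of KO over WT for each RP gene at CT10 (horizontal) and at CT22 (vertical), with bars for the SE, circles for 40S and squares for 60S genes. The genes spread around 0 along the horizontal axis and lie below 0 along the vertical one, with Rps27, Rpl30 and Rpl26 apart.

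The difference between the KO effects at CT22 and CT10 had a median log2 of -0.21 over the RP genes, with 76 of 77 below 0, against 50.1% of all genes. In edgeR 0 RP genes passed, as did 0% of all genes, with a lowest adjusted p of 0.737. At an unadjusted p under 0.05 5 RP genes were below 0 and 0 above, against 2.55% and 3.55% of all genes, and DESeq2 called 0 with 5 at an unadjusted p under 0.05 (5.1% of all genes). The largest were Rpl26 (-0.62, SE 0.33), Rps19 (-0.40, SE 0.19) and Rpl36a (-0.38, SE 0.14). The median moved both ways with single libraries. It was -0.31 without WT CT22 replicate 1, with 29 genes at an unadjusted p under 0.05, and -0.28 without KO CT10 replicate 3, with 13. It was -0.10 without KO CT10 replicate 2 and -0.12 without WT CT22 replicate 3, with 0 such genes in both. With these 2 libraries left out, the lowest in long genes, an alternative chosen after seeing the data, it was -0.01 with 41 of 77 genes below 0. Without the 2 KO libraries that the clock genes put elsewhere it was -0.28 with 76 below 0. The 2 KO effects are thus not shown to differ for any RP gene.

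Over both CT labels the median log2 change of KO over WT was -0.11, with all 77 estimates at or below 0, against 48.2% of all genes below 0. In edgeR 0 RP genes passed, against 0.0212% of all genes, and the lowest adjusted p was 0.703. At an unadjusted p under 0.05, 10 RP genes were lower and 0 higher, against 2.89% and 3.46% of all genes, and DESeq2 called 0 with 14 at an unadjusted p under 0.05 (5.42% of all genes). That count of 10 depended on single libraries. It was 44 without KO CT10 replicate 2 (median -0.17), 2 without replicate 1 or 3 of that group, 35 without WT CT22 replicate 1, 1 without its replicate 3, and 5 or 6 without KO CT22 replicate 3, WT CT22 replicate 2 or WT CT10 replicate 1 or 3. Rps14, a 40S protein of the platform, had 184 to 246 CPM in KO libraries (median 211) and 210 to 291 CPM in WT libraries (median 239), with overlap and a log2 change of -0.22 (SE 0.08, edgeR adjusted p = 0.703). Rps29 was at -0.21 (SE 0.08), Rpl26 at -0.39 (SE 0.16), Rpl30 at -0.44 (SE 0.22) and Rps27 at -0.57 (SE 0.29), and for Rps27 the posterior estimate gave 0.09 (SE 0.21). Rpl22 (-0.01), Rpl34 (0) and Rps28 (-0.03) were smallest.

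The authors' deposited table, a single comparison of KO with WT, gave a negative log2 ratio for 76 of the 77 genes, with a median of -0.12 and a range of -0.43 to 0.11. The exception in the authors' deposited table was Rps27 at 0.11, and the lowest adjusted p there was 0.6458. With the library richest in choroid plexus markers left out of every group, the median over both labels was -0.03 with 54 genes lower. WT CT22 replicate 3 and KO CT22 replicate 3 were among those left out. With the length trend removed the median was -0.05 with 69 lower. Without the 2 KO libraries that the clock genes put elsewhere it was -0.08 with 69 lower and 1 at an unadjusted p under 0.05.

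Between the CT labels most RP estimates had opposite signs in the 2 genotypes, and no gene passed in either. In KO, CT22 over CT10 had a median log2 of -0.12 with 72 of 77 genes lower, against 49.9% of all genes. In edgeR 0 RP genes and 0% of all genes passed, 2 RP genes were lower and 0 higher at an unadjusted p under 0.05 (1.34% and 1.83% of all genes), and DESeq2 called 0 with 1 at an unadjusted p under 0.05 (2.44% of all genes). These 2 were Rpl36a and Rps4x, both at -0.22 (SE 0.10, edgeR adjusted p = 0.977). The KO groups did not overlap for 5 genes, all lower at CT22 and 0 higher, against 3.66% lower and 4.3% higher of all genes. Without KO CT10 replicate 2 the median was -0.01. Without KO CT10 replicate 3 it was -0.19 with 9 genes at an unadjusted p under 0.05, and without both KO libraries that the clock genes put elsewhere it was -0.19 with 75 genes lower and 6 at an unadjusted p under 0.05.

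In WT, CT22 over CT10 had a median log2 of 0.09 with 64 genes higher and 13 lower, against 50% of all genes lower. In edgeR 0 RP genes and 0% of all genes passed, 1 RP gene was higher and 0 lower at an unadjusted p under 0.05 (3.13% and 3.63% of all genes), and DESeq2 called 0 with 1 at an unadjusted p under 0.05 (5.85% of all genes). That gene was Rpl26, with 24.4, 27 and 30.1 CPM in WT CT22, against 14.9, 15 and 15.1 CPM in WT CT10. Its log2 change was 0.85 (SE 0.23, edgeR adjusted p = 0.722). The WT CT10 values, from 117, 144 and 103 counts, lay closer together than the KO CT10 values of 9.29 to 22 CPM. Rpl26 and Rpl37a (0.27, SE 0.13) were the 2 genes without overlap, both higher and 0 lower, against 7.69% and 8.54% of all genes. Without WT CT22 replicate 3 the median was 0 and Rpl26 was at 0.77. Without WT CT22 replicate 1 the median was 0.18, with 1 gene lower and 18 at an unadjusted p under 0.05.

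Scaling each library to its summed RP counts compares genes within the set and by construction puts the set as a whole near 0. The median of all genes tested then moved to 0.21 in KO over WT at CT22, 36 RP genes lay below 0, and 0 RP genes passed in any comparison. Within the set, Rpl26 was lower in KO at CT22 by -0.49 on the log2 scale (SE 0.19, edgeR adjusted p = 0.305) and higher at CT22 than CT10 in WT by 0.77 (SE 0.19, unadjusted p = 0.00095, edgeR adjusted p = 0.958). Rpl22 stood at 0.19 (SE 0.10, edgeR adjusted p = 0.354) in KO over WT at CT22.

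No transcript form passed a test between the genotypes. For 68 of the 77 genes the files hold 1 transcript, and in 5 genes a second form held over 5% of the counts. The 7-exon form of Rps24 was 11 ± 1.65% of Rps24 counts in KO and 10.6 ± 2.26% in WT (SD, n = 6 each). Second forms made up 22 ± 4.8% in KO and 21.1 ± 4.61% in WT for Rpl38, 9.99 ± 2.69% in KO and 10.5 ± 1.2% in WT for Rpl35a, and 6.16 ± 1.41% in KO and 5.67 ± 1.59% in WT for Rps27a. For Rpl30 the second form was 57.5 ± 21.1% in KO and 38.6 ± 11.4% in WT, from few counts. In exact two-sided permutation tests of KO against WT within CT label, over 400 splits, Rpl30 had p = 0.105 (adjusted p = 0.525 over the 5 forms), and the other adjusted values were 0.79.

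Genes tied to the RP set by function or control were set beside it at CT22, where 0 genes of each list passed in edgeR. Of 78 oxidative phosphorylation subunits tested, 76 had lower estimates in KO (median log2 -0.20), and of 76 mitochondrial RP genes 67 did (-0.15). The transcript lengths of these lists, and of the lists and genes that follow, were not compared. By length alone, genes outside the RP set had CT22 medians of -0.16 at 500 to 1000 bases and 0.17 over 5000 bases. Of 18 translation factors and other TOP mRNAs 15 were lower (-0.16), among them the elongation factor subunits Eef1b2 at -0.28 (SE 0.11) and Eef1g at -0.22 (SE 0.08), while Pabpc1, the poly(A)-binding protein, was at 0.04 (SE 0.09). Of 34 ribosome biogenesis genes 24 were lower (-0.06), and Mdn1, an assembly ATPase, was at 0.45 (SE 0.18). Of 22 genes of the mTORC1 and LARP group 6 were lower (0.14), with Mtor at 0.22 (SE 0.10) and Larp1 at 0.05 (SE 0.07). The fusion gene Fau, which encodes Rps30 joined to a ubiquitin-like protein (-0.17, SE 0.14), and the paralogue Rpl22l1 (-0.35, SE 0.17) had estimates in the range of the RP genes.

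Genes with the pyrimidine run at the annotated start had a median log2 change at CT22 of -0.23 (n = 13), and those without it had -0.19 (n = 43). The ranges overlapped, -0.44 to -0.10 with the run and -0.70 to -0.02 without it. The value of -0.44 was that of Rps27, which rested on few counts and was 0.46 by the posterior estimate. The next lowest gene with the run was Rps21 at -0.32. Rps6 and Rpl15, both with the run, stood at -0.25 and -0.13, and Rpl26 and Rpl36a, both without it, at -0.70 and -0.35. Across the 77 genes the Spearman correlation of the CT22 change with transcript length was 0.27, a description over genes that share the same 12 libraries.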

How the data were processed

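RNA was prepared with a stranded mRNA kit and sequenced on a HiSeq instrument, per the labels' protocols, with paired or single reads not assigned to libraries. The build was mm10 and the tools named were RSEM 1.2.5, TopHat 1.3.3, edgeR 3.0.6 and FastQC, per the submitters' processing notes. Per the file headers, the deposited files hold estimated counts and TPM per transcript, each also as a posterior estimate. For KO over WT the authors' deposited table gives a log2 ratio, a p-value, an adjusted p-value and 12 columns of normalised signal, all matched to sample titles.

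Estimated counts were summed per gene symbol and rounded. Tests used edgeR 4.0.16 in R 4.3.3: filterByExpr by group (minimum count 10), TMM factors (0.979 to 1.021), a robust quasi-likelihood fit of 4 group means to 12 libraries (8 residual degrees of freedom, biological coefficient of variation 12.3%) and Benjamini-Hochberg adjustment over 14131 genes at 0.05. DESeq2 1.42.0 was an alternative. The procedure was also run on simulated counts, drawn separately for each gene. These lacked the variation that RP genes share between libraries, so that run does not bear on counts of RP genes. Groups and replicate numbers came from the titles. Same-numbered libraries were not treated as paired. Of 18 correlations of their deviations 4 were over 0.1, and the highest was 0.33. Differently numbered libraries were not compared in this way, so a batch shared by number was not tested.

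Members, gene lists and markers were chosen with earlier results of these data known. Named genes are the 5 highest and 5 lowest per length, those with the largest or smallest change per contrast, up to 5 per label without overlap, and genes of special role; others were chosen after their values were seen. Totals of 4435606 to 10911046 counts limit precision most for Rps27, Rpl34, Rpl30 and Rpl26. Reads shared by near-identical copies were divided by estimation. Rps14 and Rpl17 sequences are not used here. A few genes are counted in the sets but not reported by name.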

Additional observations from a re-analysis of the deposited data

Results flagged for a closer look

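With 6 libraries per genotype, 32 sets of values (the summed levels and single named genes, by genotype) were examined for a library far from the others, and 5 had one. Chance gives about 1 in 20 for a single set of like libraries. Each set here pooled CT10 and CT22, and the single genes were named by their changes in these data, so that rate may not hold. The sets share libraries and the 3 summed levels are nested, so the 5 are not independent and come from 2 libraries. KO CT10 replicate 2 stood above the other KO libraries in the summed level of all RP genes (17601 CPM), of 40S genes (7119 CPM) and of 60S genes (10481 CPM). WT CT22 replicate 1 stood below the other WT libraries for Rpl15 (190 CPM) and for Rpl22 (88.4 CPM).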

How the results depend on the processing

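Across 27 alternatives, 0 RP genes passed the threshold in any comparison. The median log2 change of KO over WT at CT22 moved to -0.06 with the length trend removed, and the median difference of the KO effects to -0.03, or to -0.01 without the 2 libraries lowest in long genes. Scaling to the summed RP genes, which by construction centres the set, gave 0 at CT22 and -0.01 for the difference. The alternative without those 2 libraries and the posterior count estimates were chosen after seeing the data. Leaving out 1 library at a time, the medians ran from -0.17 to -0.08 over both labels, -0.31 to -0.14 at CT22, -0.13 to 0.07 at CT10, -0.31 to -0.10 for the difference, 0 to 0.18 for CT22 over CT10 in WT and -0.19 to -0.01 in KO. With replicate number as a block, the medians were -0.11 over both labels, -0.21 at CT22 and -0.20 for the difference.

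Calls over all genes depended on the tool: DESeq2 called 22 genes over both labels against 3 in edgeR, and 31 against 2 at CT22. Single genes near 0 turned sign over both labels. Scaling to the RP genes moved the median of all genes up to 0.12 and with it Rpl34, Rpl22 and Rps28 to 0.11, 0.11 and 0.08, which says nothing of these genes themselves. They were at 0.07, 0.01 and 0.07 with the length trend removed, and at 0.11, 0.01 and 0.03 with the 2 KO libraries that the clock genes put elsewhere left out. Without the libraries highest in choroid plexus markers Rpl22 was at 0.02 and Rps28 at 0.08, and there Rpl30 at CT22 was at 0.04 and Rps27 at 0.13 for CT22 over CT10 in WT. Rpl34 was at 0 with the most abundant transcript. The posterior estimates put Rps27 at 0.09 and Rpl34 at 0.01 over both labels, and Rps27 at 0.46 at CT22. With 1 library left out, Rpl34 ran from -0.11 to 0.06, Rpl22 from -0.05 to 0.03, Rps28 from -0.12 to 0.03, Rps27 in WT from -0.54 to 0.02 and Rpl26 in KO from -0.02 to 0.65. The cause of the other turns was not tested.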
